A study of Mus musculus with 12 samples.

Results

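The genes described here are the 10 members of the VEGF and angiopoietin axis: the ligands Vegfa, Vegfb and Vegfc, their receptors Kdr, Flt1 and Flt4, the angiopoietins Angpt1 and Angpt2, and the receptors Tek and Tie1. They were found by gene name, through every array probe that carries one of these names. They have 14 probes, of which 13 were measurable, and 9 of the 10 genes stood among the 22039 genes and unnamed transcripts that could be tested. Skin came from C57BL/6 male mice of about 8 weeks, in 4 groups of 3 samples. One group had a sutured incision of 1 cm that was injected into the dermis 72 h later with 100 nmol of promiR-29, a mimic of miR-29b, and its control group had the same incision injected with PBS. Another group had intact skin injected with 100 nmol of antimiR-29, an inhibitor of miR-29, and its control group had intact skin injected with PBS. All skin was taken 24 h after injection, so incised skin was sampled 96 h after wounding. The controls received PBS and no oligonucleotide, the mimic was given only to incised skin and the antimiR only to intact skin. The labels call the 3 samples of a group biological replicates and do not say whether each came from a mouse of its own, so p-values measure the spread between these samples.

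VEGF ligands act on receptor tyrosine kinases of endothelial cells: VEGFA signals mainly through KDR, FLT1 binds VEGFA and VEGFB with much weaker signalling and can act as a decoy, and VEGFC drives lymphatic growth through FLT4. Angiopoietin 1, made by cells around the vessel, activates TEK and keeps vessels quiet and tight, whereas angiopoietin 2, released by activated endothelium, mostly blocks TEK and loosens vessels so that VEGF can make them sprout. In skin wounds, keratinocytes and macrophages are known sources of VEGFA, and new capillaries grow into the granulation tissue. Vegfa is also a reported target of miR-29.

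The guide strands of the miR-29 family are shown because both injected agents are built on them. They come from RefSeq (GRCm38.p6), with the seed, bases 2 to 8, in capitals. The sequences of miR-29a and of 1 copy of miR-29b lie on chromosome 6, at chr6:31062673-31062694 and chr6:31063025-31063047 on the minus strand. The other copy of miR-29b, at chr1:195037091-195037113, and miR-29c, at chr1:195037600-195037621, lie on the plus strand.
mmu-miR-29a-3p: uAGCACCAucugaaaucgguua
mmu-miR-29b-3p: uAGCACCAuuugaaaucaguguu
mmu-miR-29c-3p: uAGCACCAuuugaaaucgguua
All 3 share 1 seed. Its pairing site in DNA letters, TGGTGCT, was in 0 of the 14 member probes and in 0.543% of the 39429 probes of the array, searched on the probe strand. This says only that these letters are not in the probes.

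Vegfa has 2 probes on the array. The one that carries most of what follows lies in coding sequence shared by the main VEGFA isoforms and is called the upstream probe here, and the other, further along the gene, is called the downstream probe.
The probes of Tek, at chr4:94540624-94540683 (mm9 build) on the plus strand, and of Tie1, at chr4:118144132-118144191 (mm9) on the minus strand, are shown because they read matching coding segments of both receptors and yet gave different patterns. Capitals mark the 39 of 57 aligned bases that are identical.
Tek: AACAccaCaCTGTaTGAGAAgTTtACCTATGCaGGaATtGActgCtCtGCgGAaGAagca
Tie1: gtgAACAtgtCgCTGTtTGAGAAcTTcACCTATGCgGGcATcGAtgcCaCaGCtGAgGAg

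Each array carried skin RNA in Cy5 and a universal mouse reference RNA in Cy3, so every value below is a log2 ratio of skin over this reference RNA unless it is called a fold change. A value compares groups for 1 probe and says nothing about which gene is more abundant. Between 65.6% and 73.8% of the 39429 probes had Cy5 well above background on an array, and 0 spots were saturated. Genes were called at an adjusted p under 0.05 over all genes tested with limma. The arrays lay on 3 slides of 4, and no slide held both PBS groups. Intact PBS 3 stood apart, with a median correlation of 0.92 to its own group, where the other 11 arrays had 0.938 to 0.976. It also had an adipocyte marker score (the median centred log2 ratio of 14 adipocyte genes) of 0.98, and incised PBS 2 and mimic 3 had scores of 1.14 and 0.62, where the other 9 arrays lay between -0.93 and -0.00011. Intact PBS 2, with a median correlation of 0.938, had a hair follicle marker score of 2.63. The other 11 arrays lay between -0.49 and -0.038 in that score. In whole skin, fewer cells of a type and less RNA per cell cannot be told apart.

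Angpt2 was the only member called in the fit over genes. It rose with the antimiR in intact skin and with wounding under PBS, contrasts in which 9.44% and 15.1% of all genes were called. Its probe lies at chr8:18691458-18691517 (mm9, minus strand). Angpt2 read 1.39, 1.25 and 1.71 in mimic-treated incisions and 1.01, 0.62 and 1.40 in PBS-treated incisions. It read 1.16, 0.99 and 0.76 in antimiR-treated intact skin, against -0.45, 0.39 and 0.34 in PBS-treated intact skin. All 3 arrays of intact PBS skin thus lay below all 9 others, and the mimic and PBS arrays of incised skin overlapped. With the antimiR, Angpt2 was 1.84-fold higher than with PBS in intact skin (log2 fold change 0.88 ± 0.25, SE, limma adjusted p = 0.0495). Incised skin had 1.89-fold more Angpt2 than intact skin under PBS (0.92 ± 0.25, adjusted p = 0.0313). The mimic gave 0.44 ± 0.25 over PBS in incised skin (adjusted p = 0.53), with a 95% interval of -0.10 to 0.99.

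Both Angpt2 calls lay close to the threshold and share the intact PBS arrays. The antimiR call held in 7 of 20 alternatives, with fold changes of 0.61 to 1.08 and adjusted p of 0.0435 to 0.30. The wounding call held in 10 of 20, with 0.65 to 1.13 and 0.0278 to 0.368. Without intact PBS 1, the lowest array, the antimiR value was 0.61 (adjusted p = 0.126) and the wounding value 0.65 (adjusted p = 0.0765). Without intact PBS 3, which stood apart, they were 1.00 and 1.04, with adjusted p of 0.0448 and 0.0354. Within slide 3, the mean of the 3 antimiR arrays stood 0.63 above the single intact PBS array, and within slide 1 the single mimic array stood 0.38 above the mean of the 3 incised PBS arrays. No slide allowed the wounding value to be taken within it.

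**Figure D1:**
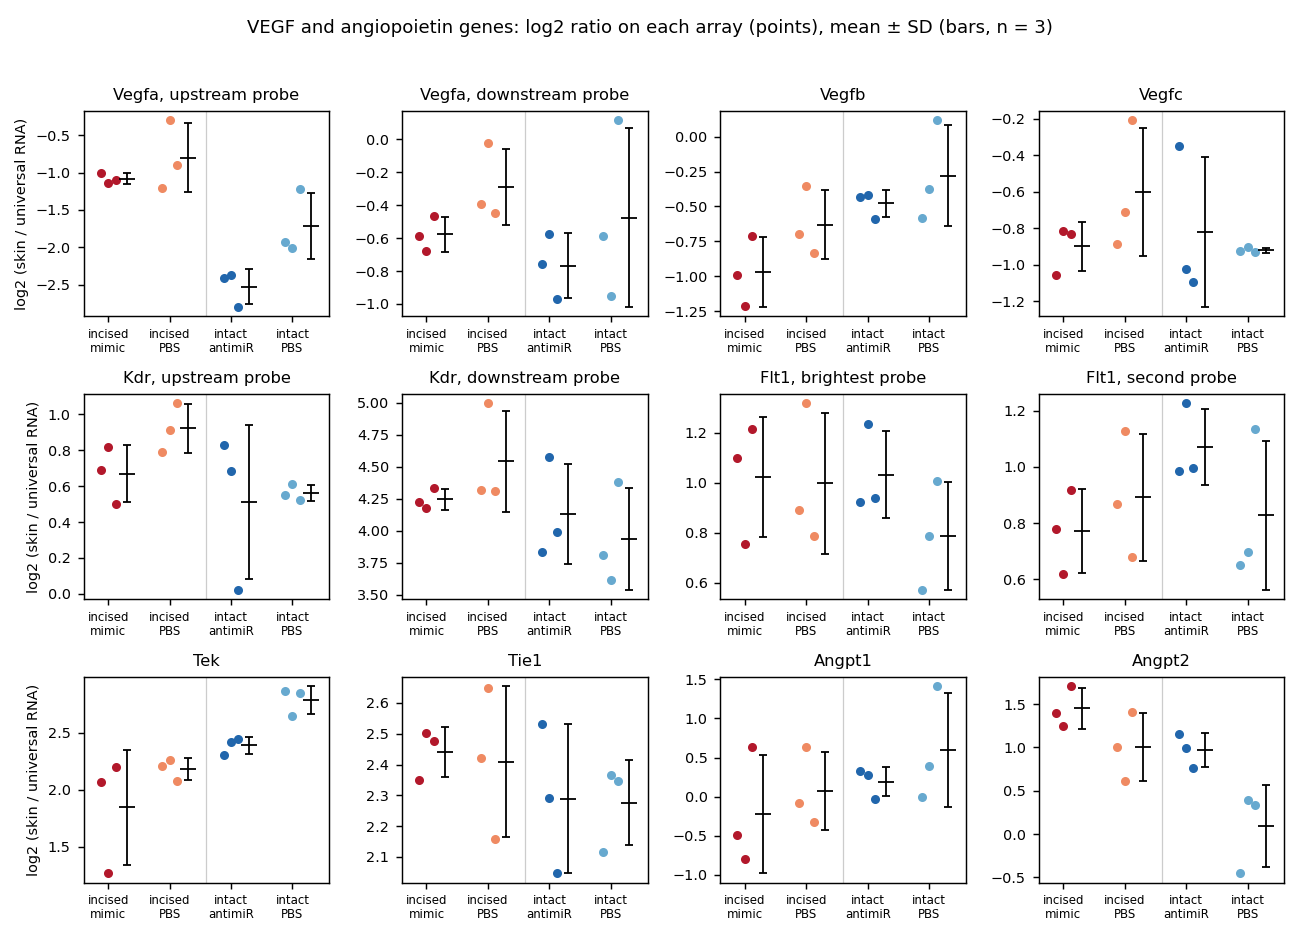
Log2 ratio of skin RNA over the universal reference RNA (vertical axis of each panel) for 12 probes of the VEGF and angiopoietin genes in the 4 groups. Points are arrays and black bars the mean ± SD of 3 arrays; each panel has its own scale. Angpt2 is lowest in intact PBS skin, at -0.45 to 0.39, and the upstream Vegfa probe is lowest in antimiR-treated skin, at -2.80 to -2.36.

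Of the VEGF ligands, Vegfa changed on 1 of its 2 probes. The upstream, coding probe read -1.01, -1.14 and -1.09 in mimic-treated incisions and -1.20, -0.30 and -0.90 in PBS-treated incisions. It read -2.41, -2.36 and -2.80 in antimiR-treated intact skin, against -1.92, -2.01 and -1.21 in PBS-treated intact skin. All 6 incised arrays lay above all 6 intact ones, if barely, with -1.20 on incised PBS 1 and -1.21 on intact PBS 3, and all antimiR arrays lay below all others. In the fit over probes, where 15.2% of the 28799 kept probes were called for wounding, 11.1% for the antimiR and 0.503% for the mimic, this probe rose with wounding under PBS (0.91 ± 0.24, a fold of 1.88, limma adjusted p = 0.0299). The antimiR gave -0.81 ± 0.24 (adjusted p = 0.0575), which missed the threshold although its groups did not overlap. The mimic gave -0.28 ± 0.24 (adjusted p = 0.731).

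The downstream probe, which represents Vegfa in the fit over genes because it is the brighter, showed less. It read -0.59, -0.68 and -0.47 in mimic-treated incisions and -0.39, -0.021 and -0.45 in PBS-treated incisions, 2 groups that did not overlap. It read -0.76, -0.58 and -0.97 with the antimiR and -0.59, -0.95 and 0.12 with PBS in intact skin, where the groups overlapped. Its fold changes were -0.29 ± 0.23 for the mimic, -0.29 ± 0.23 for the antimiR and 0.19 ± 0.23 for wounding, with limma adjusted p of 0.689, 0.489 and 0.621 over genes. Without intact PBS 3, the array that read 0.12, the antimiR value was 0.0038 and the wounding value 0.48.

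The step from the downstream to the upstream Vegfa probe was thus larger in intact than in incised skin. The upstream minus the downstream log2 ratio averaged -0.50 ± 0.11 (SD, n = 3) in mimic-treated incisions and -0.51 ± 0.27 in PBS-treated incisions. It averaged -1.76 ± 0.092 with the antimiR and -1.24 ± 0.16 with PBS in intact skin. On single arrays it ran between -0.63 and -0.42 with the mimic, -0.81 and -0.28 with PBS in incised skin, -1.83 and -1.65 with the antimiR and -1.33 and -1.05 with PBS in intact skin. The antimiR and intact PBS arrays did not overlap, nor did incised and intact PBS, while the mimic arrays lay within the incised PBS range. No test was run on this difference, and its cause was not tested.

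The upstream probe's wounding call held in 6 of 14 alternatives, with values of 0.66 to 1.16 and adjusted p of 0.0106 to 0.297. It was lost without incised PBS 2, the highest incised array (0.66, adjusted p = 0.0951), without incised PBS 3 (0.96, adjusted p = 0.0651) and without intact PBS 1 or 2 (0.81 and 0.77, adjusted p = 0.0811 and 0.0807). Without intact PBS 3 it was 1.16 (adjusted p = 0.0106). The antimiR value was called in 2 of 14 alternatives, with the extraction program's processed signals (-1.11, adjusted p = 0.0353) and with the slide as a block (-1.31, adjusted p = 0.026), and it was -0.56 without intact PBS 3 (adjusted p = 0.131). Within slide 3 the mean of the 3 antimiR arrays minus the single intact PBS array, intact PBS 3, was -1.31 on the upstream probe and -0.89 on the downstream probe.

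**Figure D2:**
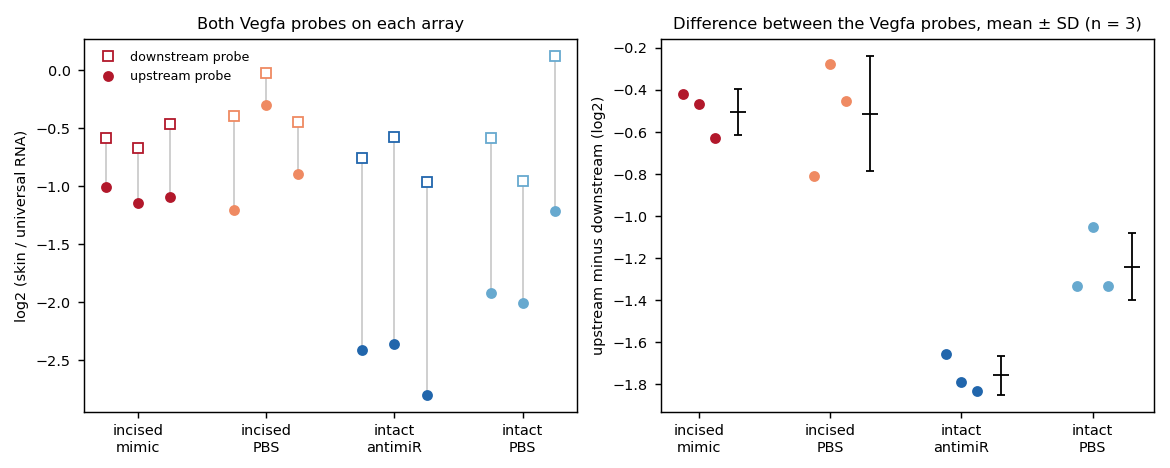
Left, the log2 ratio of the upstream probe (filled circles) and the downstream probe (open squares) of Vegfa on each of the 12 arrays, joined by a line per array. Right, the upstream minus the downstream log2 ratio per array with mean ± SD (n = 3), which is near -0.50 in both incised groups, -1.76 with the antimiR and -1.24 with PBS in intact skin.

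Vegfb, which binds FLT1 and is most abundant in tissues rich in mitochondria, was called in none of the contrasts. It read -0.99, -1.21 and -0.71 with the mimic and -0.70, -0.35 and -0.84 with PBS in incised skin, and -0.43, -0.42 and -0.59 with the antimiR and -0.58, -0.37 and 0.12 with PBS in intact skin. The groups overlapped in each pair, and both incised groups tended to the lower readings. Its fold changes were -0.34 ± 0.19 for the mimic, -0.20 ± 0.19 for the antimiR and -0.35 ± 0.19 for wounding (limma adjusted p = 0.522, 0.582 and 0.235).

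Vegfc, the lymphatic growth factor, read -1.06, -0.81 and -0.83 with the mimic and -0.88, -0.71 and -0.21 with PBS in incised skin. It read -0.35, -1.02 and -1.09 with the antimiR, against -0.93, -0.90 and -0.93 with PBS in intact skin, where the readings lay close together. All 3 incised PBS arrays lay above all 3 intact PBS arrays, by a fold change of 0.32 ± 0.20 that did not pass the test (limma adjusted p = 0.317). The mimic gave -0.30 ± 0.20 (adjusted p = 0.625) and the antimiR 0.099 ± 0.20 (adjusted p = 0.821).

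Kdr, the main signalling receptor for VEGFA, has 2 probes 1086 bases apart, and no contrast was called on either. The brighter, upstream one read 0.69, 0.82 and 0.50 with the mimic and 0.79, 0.91 and 1.06 with PBS in incised skin. It read 0.83, 0.69 and 0.021 with the antimiR and 0.55, 0.61 and 0.52 with PBS in intact skin. Its incised PBS arrays lay above its intact PBS arrays (fold change 0.36 ± 0.18, limma adjusted p = 0.199), and 1 antimiR array was far below the rest. The downstream probe, printed as 10 spots on each array, read 4.23, 4.17 and 4.34 with the mimic and 4.32, 5.00 and 4.31 with PBS in incised skin. It read 3.83, 4.58 and 3.99 with the antimiR and 3.81, 3.61 and 4.38 with PBS in intact skin, and its wounding value was 0.61 ± 0.25 (adjusted p = 0.121 over probes) with overlapping groups. Both Kdr probes thus lay higher in incised PBS skin on average, and neither passed the test. Between the 2 probes r was 0.34 over the 12 arrays and -0.021 after the group means were taken out. Array by array they did not run alike.

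Flt1, the VEGF receptor that also works as a decoy, was read by 2 probes on all arrays. The brighter read 1.1, 0.76 and 1.22 with the mimic and 0.89, 1.32 and 0.79 with PBS in incised skin, and 0.92, 1.24 and 0.94 with the antimiR and 0.57, 0.79 and 1.01 with PBS in intact skin. All pairs of groups overlapped. The fold changes were 0.025 ± 0.17 for the mimic, 0.25 ± 0.17 for the antimiR and 0.21 ± 0.17 for wounding (limma adjusted p = 0.977, 0.434 and 0.441). The second probe, 73081 bases upstream, gave -0.12 ± 0.15, 0.24 ± 0.15 and 0.064 ± 0.15 for the same contrasts. Another Flt1 probe was well above background on 3 arrays, 2 of intact PBS and 1 of antimiR-treated skin, and no fold is given for it.

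Flt4, the VEGFC receptor of lymphatic endothelium, was not well above background on any of the 12 arrays, so it was not tested and no fold is given. Prox1, Ccl21a and Reln of the lymphatic marker list were not among the tested genes either, so lymphatic vessels were read by 6 of 10 listed markers. Pdpn rose with the antimiR (0.86 ± 0.21, limma adjusted p = 0.0264) and Lyve1, the hyaluronan receptor of lymphatic vessels and of some macrophages, fell (-1.74 ± 0.44, adjusted p = 0.0318). Under PBS, Stab1, a scavenger receptor of lymphatic and sinusoidal endothelium and macrophages, was higher in incised than in intact skin (1.09 ± 0.27, adjusted p = 0.0234), and Mmrn1 was lower (-1.49 ± 0.24, adjusted p = 0.00333). The median of the 6 markers was -0.52 with wounding, with 4 of 6 negative, and -0.022 with the antimiR. The lymphatic score ran from -0.33 to -0.00053 in incised PBS skin and from 0.041 to 0.59 in intact PBS skin, without overlap.

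Tek, the receptor of both angiopoietins, had its highest readings in intact PBS skin. It read 2.07, 1.27 and 2.20 with the mimic and 2.20, 2.26 and 2.08 with PBS in incised skin. It read 2.31, 2.42 and 2.44 with the antimiR, against 2.86, 2.64 and 2.85 with PBS in intact skin. The intact PBS arrays did not overlap with either the antimiR or the incised PBS arrays, and mimic 2 stood far below the other arrays. The fold change was -0.60 ± 0.20 for wounding (limma adjusted p = 0.0608) and -0.39 ± 0.20 for the antimiR (adjusted p = 0.25), and neither passed the test. The wounding value of Tek was called in 1 of 20 alternatives, with limma adjusted p of 0.0264 to 0.628. It passed only when fitted on the incised and intact PBS arrays alone (adjusted p = 0.0264). With the extraction program's processed signals the wounding value was -0.32 (adjusted p = 0.598) and the antimiR value was 0.0035. The mimic gave -0.34 ± 0.20 (adjusted p = 0.545), and -0.049 without mimic 2.

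Tie1, an orphan receptor that pairs with TEK and marks endothelium, was called in none of the contrasts. It read 2.35, 2.50 and 2.48 with the mimic and 2.42, 2.65 and 2.16 with PBS in incised skin, and 2.53, 2.29 and 2.05 with the antimiR and 2.12, 2.37 and 2.35 with PBS in intact skin. All pairs of groups overlapped, and the fold changes were 0.033 ± 0.15, 0.012 ± 0.15 and 0.13 ± 0.15 for the mimic, the antimiR and wounding (limma adjusted p = 0.963, 0.972 and 0.578). The 95% intervals of Tie1 ran from -0.29 to 0.35, from -0.31 to 0.33 and from -0.19 to 0.45.

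Angpt1, the TEK agonist, varied widely within groups. It read -0.49, -0.80 and 0.64 with the mimic and -0.085, 0.63 and -0.32 with PBS in incised skin, and 0.33, 0.28 and -0.024 with the antimiR and -0.0034, 0.39 and 1.41 with PBS in intact skin. Groups overlapped in every pair, and the fold changes of -0.29 ± 0.42, -0.41 ± 0.42 and -0.52 ± 0.42 for the mimic, the antimiR and wounding had limma adjusted p of 0.85, 0.616 and 0.427. The mean fold change of Angpt1 had the opposite sign to that of Angpt2 with the mimic, the antimiR and wounding alike. Its 95% intervals all included 0. Under the alternatives the Angpt1 value ran from -1.22 to 0.0003 with the antimiR and from -0.83 to 0.29 with wounding, so its sign was not stable.

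The high arrays of Angpt1 were those with high adipocyte scores: mimic 3, incised PBS 2 and intact PBS 3 each had the highest Angpt1 of their group. The same 3 arrays had the highest Vegfb, the highest downstream Vegfa and the highest Flt1 reading (brightest probe) of their groups. On the downstream Kdr probe and the second Flt1 probe they were the highest of their groups too. The brighter Kdr probe went otherwise. It was the lowest of its group on mimic 3 (0.50) and intact PBS 3 (0.52), and in the middle on incised PBS 2 (0.91). The upstream Vegfa probe was the highest of its group on incised PBS 2 and intact PBS 3, but not on mimic 3. The adipocyte markers had 0 of 14 genes called in each of these contrasts, but 14 of 14 were lower in the mean with the mimic (median -0.47) and 13 of 14 with the antimiR (median -0.49), beside medians over all genes of -0.0022 and 0.011. The adipocyte score ran from -0.93 to 0.62 with the mimic and from -0.26 to 1.14 with PBS in incised skin, and from -0.47 to -0.00011 with the antimiR and from -0.044 to 0.98 with PBS in intact skin. The part of adipose tissue in the readings of Angpt1, Vegfb, Vegfa, Kdr and Flt1 was not tested.

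**Figure D3:**
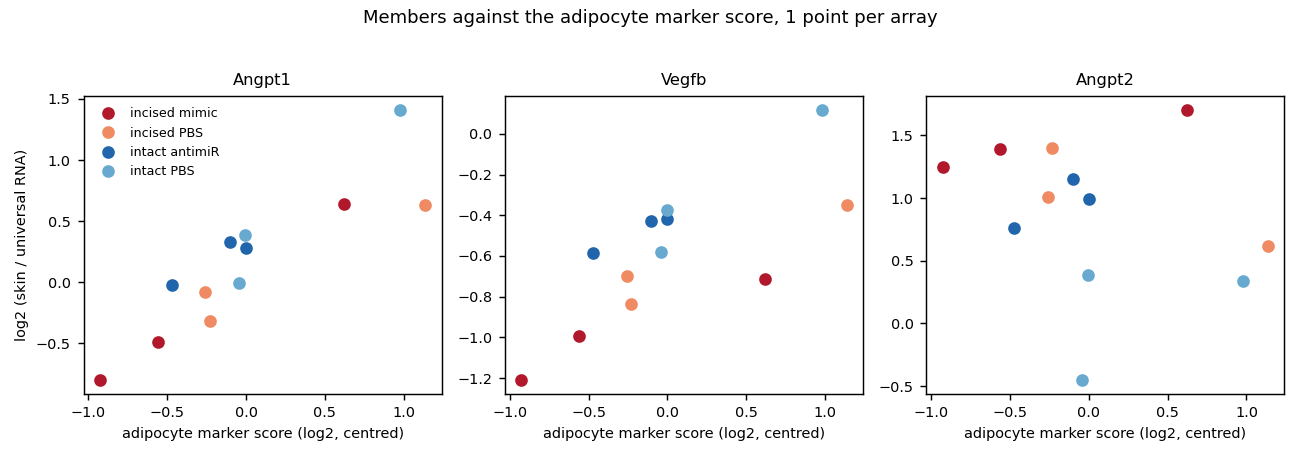
Log2 ratio of Angpt1, Vegfb and Angpt2 (vertical axes) against the adipocyte marker score (horizontal axes, centred log2), 1 point per array, coloured by group. Angpt1 and Vegfb are highest of their groups on the 3 arrays with scores of 0.62, 0.98 and 1.14. On the intact PBS arrays, with scores of -0.044, -0.0046 and 0.98, Angpt2 is at -0.45, 0.39 and 0.34.

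Read against all genes, the members' counts were as follows. In incised skin, the mimic against PBS gave 0 of 9 members called, where 0.54% of all genes were called (0.191% higher and 0.349% lower), and 0 of 9 members had an unadjusted limma p under 0.05. The members' mimic fold changes ran from -0.34 to 0.44, with a median of -0.29 beside -0.0022 over all genes, and 1 of 9 had groups that did not overlap, beside 23.9% of genes. In intact skin, the antimiR against PBS gave 1 of 9 called, Angpt2, where 9.44% of genes were called (5.07% higher and 4.37% lower). The fold changes ran from -0.41 to 0.88 with a median of -0.050, and 2 of 9 members, Angpt2 and Tek, had groups that did not overlap, beside 25.7% of genes. Under PBS, incised against intact skin also gave 1 of 9, Angpt2 again, where 15.1% of genes were called (9.83% higher and 5.28% lower). Here the range was -0.60 to 0.92 with a median of 0.19, and 4 of 9 members did not overlap between groups, beside 34.9% of genes. The share of members called was thus near or below that of all genes where any was called. The mimic effect minus the antimiR effect was called for 0 of 9 members by limma, where 1.08% of genes were called, and for 0 at an unadjusted p under 0.05; the values ran from -0.44 for Angpt2 (95% interval -1.21 to 0.33) to 0.11 for Angpt1 (-1.19 to 1.41). The downstream Vegfa value was 0.0036 (-0.71 to 0.72) and the upstream one 0.53 (-0.23 to 1.29).

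**Figure D4:**
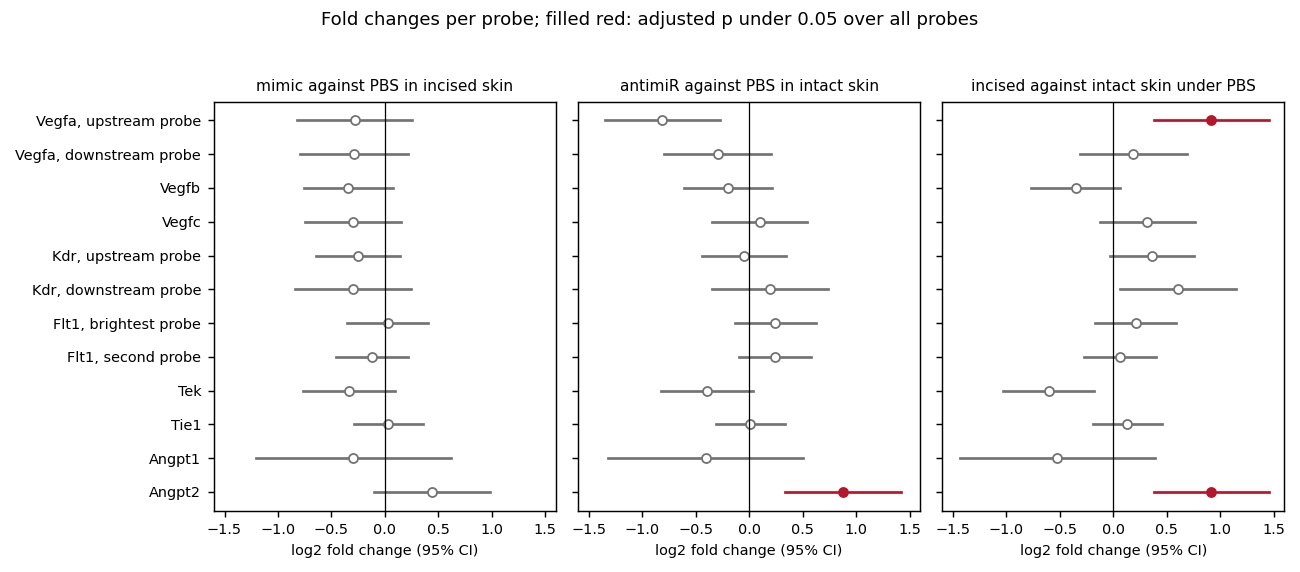
Log2 fold changes (points) with 95% intervals (lines) of 12 probes of the VEGF and angiopoietin genes in 3 contrasts, from the fit over all kept probes. Filled red marks an adjusted p under 0.05: Angpt2 with the antimiR (0.88) and with wounding (0.92), and the upstream Vegfa probe with wounding (0.91); all intervals of the mimic contrast include 0.

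Around the members, 29 of 30 listed partner genes of the VEGF and Tie pathways were measured. With wounding under PBS, 4 rose and 5 fell, with a median of -0.070 over the list, where 9.83% of all genes rose and 5.28% fell. Plxnd1, a semaphorin receptor of endothelium, rose by 0.93 ± 0.13 (limma adjusted p = 0.00181), and Nrp2, a VEGFC and semaphorin co-receptor, by 0.60 ± 0.11 (adjusted p = 0.00619). Grb10, an adaptor of receptor tyrosine kinases, rose by 1.1 ± 0.19 (adjusted p = 0.0046). Angptl2, a secreted angiopoietin-like protein, was lower (-0.59 ± 0.13, adjusted p = 0.0119). The other 5 were chosen after their values were seen: Pgf, a ligand of FLT1, was higher (0.35 ± 0.10, adjusted p = 0.0465), and Foxo1, which drives Angpt2 transcription in endothelium, was lower (-0.90 ± 0.20, adjusted p = 0.0135) together with Nr4a1, Prkca and Sema3c.

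With the antimiR, 1 partner rose and 1 fell: Ccbe1, which is needed to process VEGFC, was higher (0.72 ± 0.18, limma adjusted p = 0.0297) and Angptl2 lower (-0.48 ± 0.13, adjusted p = 0.0394). With the mimic, 0 rose and 1 fell, Sema3c, a secreted semaphorin that binds neuropilins (-1.0 ± 0.11, adjusted p = 0.00895). The list's median was 0.080 with the antimiR and 0.046 with the mimic. Of all genes, 5.07% rose and 4.37% fell with the antimiR, and 0.191% rose and 0.349% fell with the mimic.

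Of 17 measured genes of endothelial tip cells and sprouting, a list that holds Angpt2, 6 rose and 1 fell with wounding (median 0.24), where 9.83% of all genes rose and 5.28% fell. Cxcr4, the receptor of CXCL12, rose by 1.40 ± 0.14 (limma adjusted p = 0.000417), Aplnr, the apelin receptor, by 0.89 ± 0.17 (adjusted p = 0.00735) and Pdgfb, which recruits pericytes, by 0.43 ± 0.091 (adjusted p = 0.0115). Igfbp3 was lower (-1.13 ± 0.18, adjusted p = 0.00359). With the antimiR, 2 of the 17 rose, Cxcr4 (0.63 ± 0.14, adjusted p = 0.0218) and Angpt2, and 0 fell (median 0.088), where 5.07% of all genes rose. With the mimic, 0 of 17 were called by limma (median -0.038), and the gene of smallest p was Pdgfb (-0.23 ± 0.091, adjusted p = 0.331), 1 of 3 in the list whose groups did not overlap, beside 23.9% of all genes. Cxcr4 is also made by leukocytes. In the same contrasts 9 of 14 macrophage markers rose with wounding, where 9.83% of all genes rose. With the antimiR 5 of 14 rose, where 5.07% of all genes rose, but 8 of 14 were negative (median -0.15). Trem2 was among those that rose (2.79 ± 0.17 with wounding and 1.47 ± 0.17 with the antimiR). The part of leukocytes in the Cxcr4 readings was not tested.

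Of the endothelial markers, all 25 were measured. With wounding 4 of 25 rose and 0 fell (median 0.13), where 9.83% of all genes rose and 5.28% fell. The 4 were Ecscr (0.54 ± 0.089), Erg (0.58 ± 0.10), Icam2 (0.76 ± 0.13) and Eng (0.45 ± 0.12), with limma adjusted p of 0.00379, 0.00458, 0.0054 and 0.0336. With the antimiR 1 of 25 rose, Eng (0.45 ± 0.12, limma adjusted p = 0.049), and 0 fell, where 5.07% of all genes rose and 4.37% fell. With the mimic 0 of 25 were called, beside 0.54% of all genes. The endothelial score, which includes Tie1, ran from -0.023 to 0.25 with the mimic and from -0.038 to 0.27 with PBS in incised skin, and from -0.15 to 0.12 with the antimiR and from -0.24 to -0.0077 with PBS in intact skin, so that the groups overlapped in each contrast. The macrophage score ran from 0.46 to 0.62 with the mimic and from 0.34 to 0.45 with PBS in incised skin, and from -0.71 to 0.076 with the antimiR and from -0.47 to -0.30 with PBS in intact skin. The median of the macrophage list was 0.65 with wounding and -0.15 with the antimiR, where 5 of its genes rose and none was called lower. Keratinocyte markers had medians of the same sign as the upstream Vegfa probe in all 3 contrasts. With wounding 11 of 14 were positive (median 0.28), of which 1 was called, Krt16, a keratin of activated epidermis (1.03 ± 0.30, limma adjusted p = 0.0464). With the antimiR 13 of 14 were negative (median -0.28) and with the mimic 13 of 14 (median -0.18), and limma called 0 in both. The keratinocyte score ran from -0.053 to 0.13 with the mimic and from 0.21 to 0.36 with PBS in incised skin, and from -0.49 to -0.13 with the antimiR and from -0.29 to 0.18 with PBS in intact skin. Genes induced by low oxygen, skeletal muscle markers and pericyte and vascular smooth muscle markers had medians of the same signs in all 3 contrasts. The pericyte median was -0.00063 with the antimiR. The keratinocyte score had an r of 0.66 with the upstream Vegfa probe over the 12 arrays, and -0.32 after the group means were taken out. This probe had a higher r with the scores of low-oxygen genes (0.78, then 0.34), macrophages (0.74, then -0.033) and tip cell genes (0.71, then 0.86). The downstream Vegfa probe had an r of 0.15, then -0.61, with the keratinocyte score. The part of endothelial, macrophage or keratinocyte content in the Angpt2 and Vegfa readings was not tested.

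Markers of pericytes and vascular smooth muscle, the cells that are the usual source of angiopoietin 1, rose with wounding for 4 of 14 genes, Mcam, Acta2, Pdgfrb and Ndufa4l2, and 0 fell, where 9.83% of all genes rose. With the antimiR Pdgfrb, a reported miR-29 target and the receptor for PDGFB, rose by 1.28 ± 0.13 (limma adjusted p = 0.000358), while Rgs5 (-0.93 ± 0.21, adjusted p = 0.0187) and Abcc9 (-0.51 ± 0.13, adjusted p = 0.0325) were lower. With the mimic Abcc9 alone of the 14 was called, and it was lower (-0.84 ± 0.13, limma adjusted p = 0.0263). Of all genes, 5.07% rose and 4.37% fell with the antimiR, and 0.349% fell with the mimic.

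Genes induced by low oxygen, the best known stimulus of Vegfa transcription, were listed without Vegfa itself. With wounding 4 of 17 rose and 0 fell (median 0.26), where 9.83% of all genes rose: the glucose transporter Slc2a1 (0.80 ± 0.19), the disulfide oxidase Ero1a (0.38 ± 0.094), the carbonic anhydrase Car9 (0.68 ± 0.17) and the oxygen sensor Egln3 (1.07 ± 0.32), with limma adjusted p of 0.0174, 0.0223, 0.0256 and 0.0449. With the antimiR 0 rose and 2 fell (median -0.11), where 5.07% of all genes rose and 4.37% fell. The 2 were the oxygen sensor Egln1 (-0.61 ± 0.10, limma adjusted p = 0.00482) and Ero1a (-0.36 ± 0.094, adjusted p = 0.0344). With the mimic 0 of 17 were called by limma (median -0.014), beside 0.54% of all genes.

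**Figure D5:**
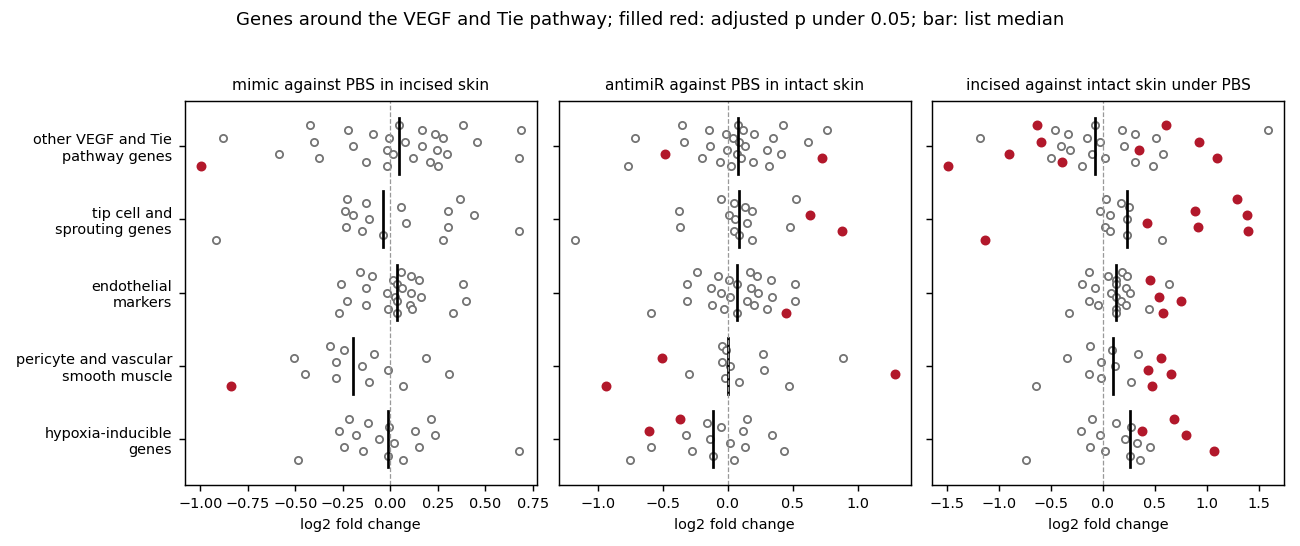
Log2 fold change (horizontal axis) of each measured gene in 5 lists around the VEGF and Tie pathway, in 3 contrasts. Filled red marks an adjusted p under 0.05 over all genes and the black bar the list's median; with wounding 4 of 29 partners, 6 of 17 tip cell genes, 4 of 25 endothelial markers, 4 of 14 mural markers and 4 of 17 low-oxygen genes are red on the right of 0.

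The 3 genes whose log2 ratios ran most like each member over the 12 arrays, which share the reference RNA and 3 slides, were sought among 20874 other genes with a value on every array. Each r is a description, given over the 12 arrays and then after the group means were taken out. Angpt2 was followed by Cd80 (0.917, and 0.649 without group means), Csf2rb2 (0.914 and 0.753) and Plek (0.891 and 0.597), which are known from leukocytes and were less like it once the group means were gone. Angpt1 was followed by Gzf1 (0.982 and 0.982), S100a1 (0.978 and 0.977) and Epas1 (0.973 and 0.974), the last of which encodes a hypoxia-inducible factor. Vegfb was followed by Akap1 (0.978 and 0.957), Mpc1 (0.977 and 0.954) and Pdhb (0.973 and 0.932), which encode mitochondrial proteins.

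The upstream Vegfa probe was followed by Magi3 (0.958 and 0.851), Atxn1 (0.957 and 0.73) and Fam8a1 (0.953 and 0.751). The downstream probe was followed by Rps6kb1 (0.933 and 0.942), Nr2f1 (0.921 and 0.965) and Traf4 (0.918 and 0.938). These short lists had no gene in common, yet the Vegfa probes themselves ran alike. Between them r was 0.704 over the arrays and 0.863 after the group means were taken out. Vegfc was followed by Olfr283 (0.895 and 0.876), Myl2 (0.864 and 0.91) and Tmprss11a (0.848 and 0.844). The brighter Kdr probe was followed by Vmn1r217 (0.985 and 0.982), Kidins220 (0.98 and 0.977) and Gfra4 (0.966 and 0.959). The other Kdr probe was followed by Ttyh2, Tpst2 and Chst11 (0.874 to 0.90 over the arrays). The Kdr lists shared no gene either, and r between the Kdr probes was 0.34, and -0.021 without group means. An empty overlap of such short lists therefore does not tell whether the probes of a gene run alike. The brighter Flt1 probe was followed by Tmem241 (0.923 and 0.96), Gimap8 (0.902 and 0.917) and Ireb2 (0.862 and 0.871). Tek was followed by Macrod2 (0.961 and 0.87), Larp1b (0.948 and 0.835) and Ccdc160 (0.944 and 0.819), and Tie1 by Angptl4 (0.901 and 0.963), Hesx1 (0.854 and 0.878) and Apeh (0.846 and 0.882).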

How the data were processed

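The deposited scanner files hold spot intensities of both dyes with their local background, made with Agilent Feature Extraction 11.5.1.1 on an mm9 design, per the file headers. The same program's processed intensities and its log10 ratio of Cy5 over Cy3 are deposited beside them. A table of log2 ratios per gene symbol, made by the authors, names the dyes in the other order. Set against the processed ratios it holds skin over reference (r of 0.998 to 0.999 per array), and its 9.82% of exact zeros were treated as missing, with a minimum of 6 arrays per gene.

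Here the intensities were corrected with normexp (offset 50) and loess in limma 3.58.1 (R 4.3.3), without control spots or outlier spots. Probes entered the fit if the scanner program marked their Cy5 signal as well above background on 3 or more of the 12 arrays and each group had a value, which left 28799 of 39429. The brightest kept probe stood for its gene (22039 genes). All 4 group means were fitted together with lmFit and eBayes, and p-values were adjusted by Benjamini-Hochberg over all genes, or over all kept probes where a probe is named. Every adjusted p in the text is from limma. The mimic and wounding contrasts share the incised PBS arrays, and the antimiR and wounding contrasts share the intact PBS arrays. The number of arrays limits the precision. A marker score is the median over a list of log2 ratios centred on each gene's mean.

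The members were found by gene name, but which genes count as members, and the gene lists, were chosen with earlier results of these data known. Named are all members, up to 4 genes of smallest p from a described list in a contrast, and the 3 genes most correlated with a member. Exceptions are the other 5 called partner genes of wounding, chosen after their values were seen, and the neighbours of 2 further Flt1 probes, which are left out. Alternatives covered background, scaling, filter, probe choice, blocks and leaving out each array. The sequence and position of the Vegfa probes are not reported here.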

Additional observations from a re-analysis of the deposited data

How the results depend on the processing

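For the mimic and for the mimic effect minus the antimiR effect, 0 members were called under every alternative run. For the antimiR the count of 1 became 0 with processed signals, scaling between arrays, the deposited table, no filter, only the compared groups, a trend and robust fit, the slide as a random block and the replicate block, and ran from 0 to 1 when single arrays were left out. With the slide as a fixed block it stayed at 1, but the gene was Vegfa (-0.89, limma adjusted p = 0.0383) and not Angpt2. That value compares the antimiR arrays with intact PBS 3 alone, the only intact PBS array on their slide. Without intact PBS 3, in the fit without a block, the antimiR value of Vegfa was 0.0038. For wounding the count became 0 with processed signals, scaling, Cy5 alone, the deposited table and the slide as a fixed or random block. It was 2 with the dimmest kept probe of each gene, an alternative chosen after seeing the data, as were those of the upstream Vegfa probe, and ran from 0 to 1 when single arrays were left out. With only the compared groups it was 1, Tek in place of Angpt2. Of 765 member values under alternatives, 739 kept their side of the threshold, 23 lost a call, 3 gained one, and 61 changed sign without a call on either side. No called value changed sign. The cause of these changes was not tested.

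Over all genes, 2081 were called for the antimiR, against 576 with only the compared groups and 874 after scaling. For wounding the 3329 called became 12 with the slide as a fixed block, a fit in which no slide holds both PBS groups, and 1341 after scaling. For the mimic the 119 called ran from 0 with the slide as a fixed block to 450 with only the compared groups. Same-numbered arrays had r of deviations from -0.43 to 0.28. With 3 arrays per group these r cannot decide whether same-numbered arrays are paired. The replicate block gave 0 members for the antimiR and 1 for wounding. A dim Flt1 probe and Flt4 were limited by signal over background.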
